A study of Mus musculus with 2 samples.

Results

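The autophagy machinery is described here as 35 genes, picked by symbol for their known roles, with earlier results of these data known, out of 23652 genes in the deposited table. The rule that picks them uses no measured value. Macroautophagy encloses cytoplasm in a double membrane, the autophagosome, and delivers it to lysosomes for breakdown. The ULK1 kinase complex starts the process, a phosphatidylinositol 3-kinase complex marks the growing membrane, lipid carriers enlarge it, and a pair of ubiquitin-like conjugation reactions attach ATG8 proteins to it, which cargo receptors then bind. In pancreatic beta cells this pathway removes worn mitochondria, insulin granules and protein aggregates, and mice whose beta cells lack Atg7 have impaired insulin secretion.

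The study sequenced RNA of pancreatic islets from mice aged 7 months. One library came from SRSF2 flox/flox Ins2-Cre mice, called the knockout here, in which an insulin promoter drives Cre recombinase, so that floxed sequence is deleted in beta cells and not by design in other islet cells. The other library came from SRSF2 flox/flox mice, called the control, which carry the same floxed alleles without Cre. Srsf2 encodes a splicing factor of the SR family, which recognises sequences in exons. Effects of Cre itself and of the deletion cannot be told apart in this design, and the labels do not say how many mice each library pools. Each group had 1 library, so no difference has a replicate check, no test across samples was possible, and each value describes these 2 libraries.

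Levels are given as FPKM, the reads of a gene scaled to its length and to the library's total. The knockout library held 15098659 reads on genes and the control library 17412828. A ratio is FPKM in knockout over FPKM in control, with a 95% counting interval that covers counting error only. A difference is log2(FPKM + 0.5) in knockout minus control, and a gene counted as measured when its mean FPKM was at least 1. A gene was called lower or higher when its difference reached 2-fold. Over the 10666 measured genes the median difference was -0.36 and the median ratio 0.757, and a relative difference is a difference minus this median.

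Markers of several cell types also differed between the libraries. All 15 acinar markers were more than 2-fold higher in the knockout library, where they took 13.5% of all reads, against 1.5005% in the control library, and none was at 0. The 3 measured of 5 lymphocyte markers were also more than 2-fold higher, with a summed level of 62.2 FPKM in knockout and 23.1 FPKM in control. Macrophage markers summed to 118 FPKM in knockout and 99.2 FPKM in control, with 2 of 6 more than 2-fold higher, against 1.57% of the whole measured set. Lyz2 at a ratio of 1.16 and C1qa at 1.18 differed less, and Csf1r was the 1 marker of the 6 that was lower, at 0.670 (0.544 to 0.822). All 4 endothelial markers had a ratio under 1, from 0.536 for Kdr to 0.998 for Plvap. Of the 4 stromal markers, 2 were measured, with ratios of 0.644 for Dcn and 0.990 for Pdgfrb. Markers of alpha, delta and PP cells took 4.11% of reads in knockout and 2.69% in control, and all 5 measured of 6 were higher in knockout, with ratios of 2.54 for Ppy, 1.71 for Sst and 1.38 for Gcg. Of the duct markers, 3 of 5 were measured, with ratios of 4.58 for Muc1, 2.44 for Krt19 and 0.669 for Krt7. The levels of the 5 summed to 215 FPKM in knockout and 309.8 FPKM in control. Krt7 made up most of both sums, at 205.7 FPKM in knockout and 307.5 FPKM in control. The insulin genes Ins1 and Ins2 took 17.8% of reads in knockout and 19.5% in control. Of 10 beta cell markers, 3 were called lower (30%, against 6.32% of all measured genes). Their ratios were 0.357 for Slc2a2, 0.391 for G6pc2 and 0.433 for Slc30a8. In all, 8 of the 10 had a ratio under 1, among them Ins2 at 0.974. The other 2 were Ucn3 at 1.13 and Iapp at 1.05. Relative to the median of all genes, 1 of the 10, Slc2a2, was past 2-fold. Against the trend of difference with gene length over all genes, 9 of the 10 lay below it, with a median of -0.55. Slc2a2 lay at -1.21, G6pc2 at -1.17 and Slc30a8 at -1.06. Totals without the acinar markers were tried as an alternative scaling, given in the last section. Beyond that scaling, the part of these markers in the values below was not tested. In such bulk RNA, fewer cells of a type and less RNA per cell cannot be told apart. Srsf2 itself stood at 22.6 FPKM in knockout and 37.2 FPKM in control, a ratio of 0.607. This was short of the 2-fold rule, with a relative difference of -0.34. The drop was larger for 20.2% of measured genes, so the Srsf2 level alone does not set this gene apart.

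Most autophagy genes were modestly lower in the knockout library, and the ATG8 genes were the group that was not. Of the 35 genes, 32 were measured, and 30 of these (93.8%) had a lower level in knockout than in control, where 78.9% of all measured genes did. At 2-fold, 3 were lower (9.38%, against 6.32% of all measured genes) and 0 were higher (1.57% of all). The 3 were Optn, Ambra1 and Ulk1. At 1.5-fold, 14 were lower (43.8%, against 29.6% of all) and 0 were higher (3.69% of all). The median difference of the 32 was -0.46, or -0.09 relative to all genes. Relative to that median, 0 of the 32 were past 2-fold in either direction, where 1.36% of all genes were lower and 3.22% higher. The counting interval of the ratio lay below the all-gene median ratio for 14 members, above it for 8, and included it for 10.

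**Figure D1:**
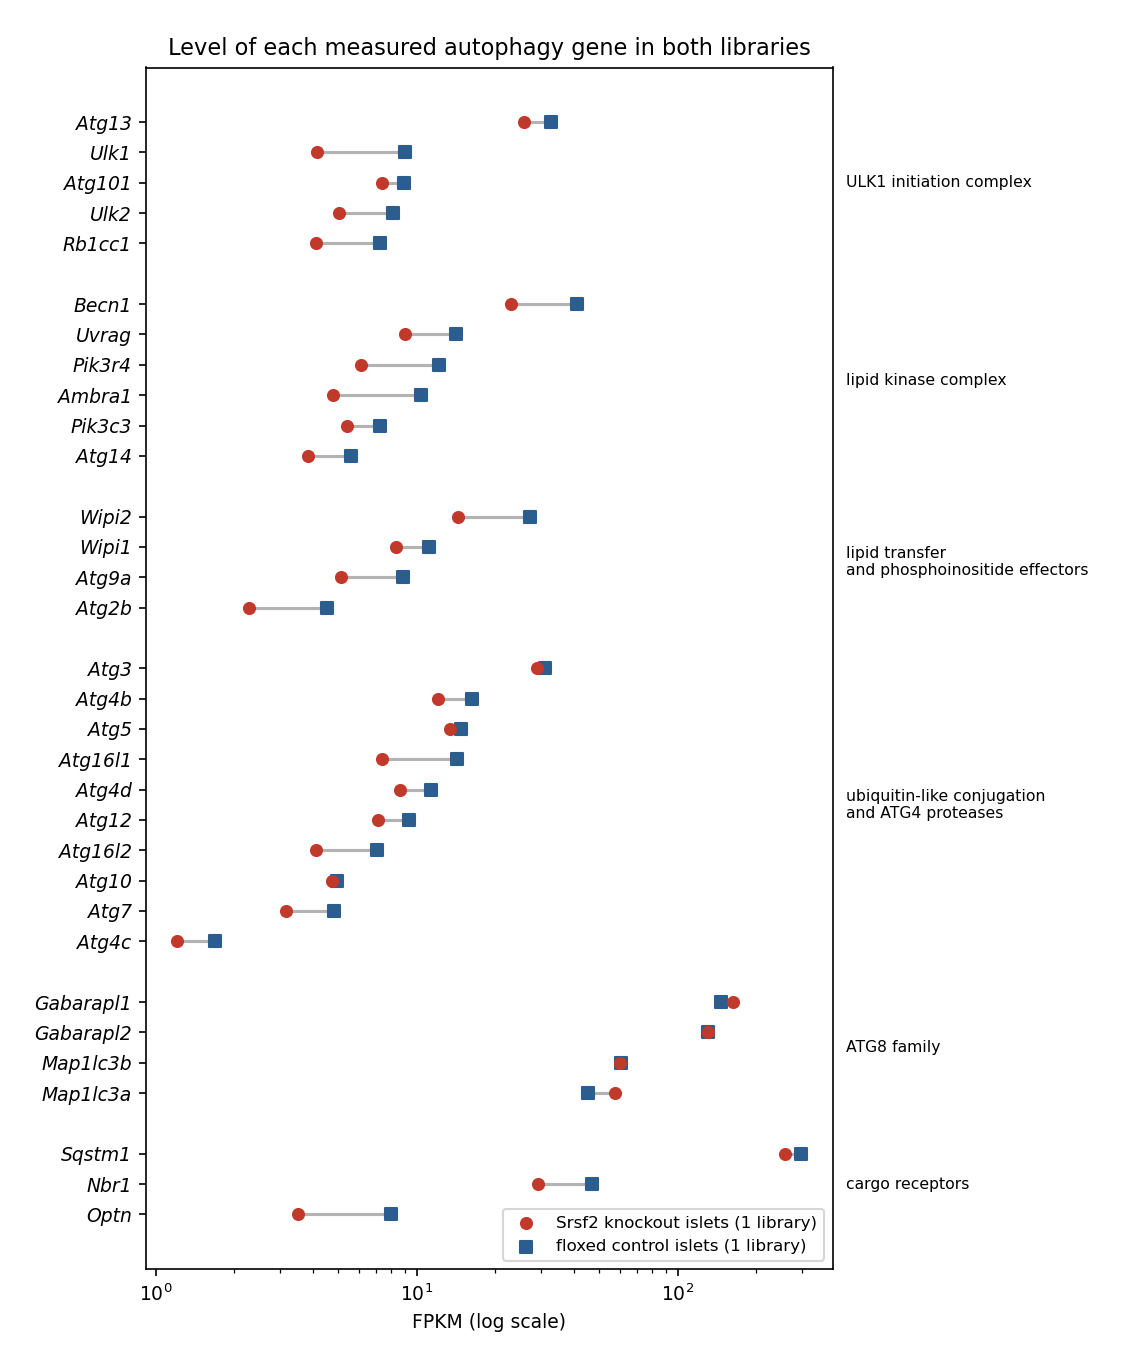
Level in FPKM (log axis) of each of the 32 measured autophagy genes, grouped by role, with circles for the knockout library and squares for the control library. The knockout circle lies left of the control square for all but Map1lc3a and Gabarapl1, and the pairs of Gabarapl2 and Map1lc3b lie almost on each other.

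The remaining 3 members could not be measured. Gabarap, an ATG8 gene used by most tissues, is listed at 0 reads in both libraries. The table holds a second Gabarap row on a scaffold outside the chromosomes, with 147 reads (8.68 FPKM) in knockout and 130 reads (6.65 FPKM) in control. Atg2a, a lipid transfer gene, had 1 read in knockout and 9 reads in control, and a second row of that kind had 0 reads in knockout and 12 in control. Atg4a, an ATG8 protease gene, had 3 reads in knockout and 11 in control, and its second row had 2 in knockout and 8 in control. These are the only 3 members with such a second row. Of the 1113 genes on chromosomes that have one, 81.2% were under a mean FPKM of 1, against 49.9% of the 20812 without. The labels do not say how reads that match both copies were counted, so the levels of these 3 genes are uncertain and none is called absent.

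In the ULK1 complex, which receives nutrient and energy signals, Ulk1 was the lowest of the 5 genes by ratio. Ulk1, the kinase that starts autophagosome formation, had 362 reads (4.17 FPKM) in knockout and 901 reads (8.999 FPKM) in control, a ratio of 0.463 (interval 0.409 to 0.524) and a relative difference of -0.66. Its paralogue Ulk2 stood at 5.04 FPKM in knockout and 8.10 FPKM in control, a ratio of 0.622 (0.555 to 0.697). The order of these kinase genes thus differed between the libraries, with Ulk1 at 0.828 times the level of Ulk2 in knockout and 1.11 times in control. Rb1cc1, which encodes the scaffold FIP200, stood at 4.11 FPKM in knockout and 7.21 FPKM in control, a ratio of 0.570. The ratios of the adaptors were higher. Atg13, which links the kinase to the scaffold, stood at 25.7 FPKM in knockout and 32.8 FPKM in control, a ratio of 0.784 (0.733 to 0.838). Atg101, which stabilises Atg13, stood at 7.37 FPKM in knockout and 8.94 FPKM in control, a ratio of 0.825 (0.688 to 0.988). The intervals of Ulk1 and Rb1cc1 lay below that of Atg13 without overlap. Relative to all genes, 3 of the 5 were lower and 2 higher. Against the length trend of all genes Ulk1 lay at -0.47, while Ulk2 lay at -0.07, Rb1cc1 at -0.12, Atg101 at -0.13 and Atg13 at 0.08.

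Genes of the lipid kinase complex, which makes the phosphoinositide mark of the growing membrane, were all lower in knockout, with a median difference of -0.72 over 6 genes, or -0.36 relative to all genes. Ambra1 encodes a regulator that binds Beclin 1 and occupies bases 91730138 to 91918849 of chromosome 2, plus strand (GRCm38, as in the table). It had 383 reads (4.80 FPKM) in knockout and 956 reads (10.4 FPKM) in control, a ratio of 0.462 (0.409 to 0.521). Pik3r4, the regulatory subunit VPS15, stood at 6.14 FPKM in knockout and 12.1 FPKM in control, a ratio of 0.506 (0.452 to 0.565), just short of the 2-fold rule with a difference of -0.93. Becn1, encoding Beclin 1, had the highest level of the group, with 23.1 FPKM in knockout and 41.3 FPKM in control, a ratio of 0.559 (0.515 to 0.608). The catalytic subunit gene differed less than these partners. Pik3c3, encoding VPS34, stood at 5.42 FPKM in knockout and 7.27 FPKM in control, a ratio of 0.746 (0.674 to 0.825), close to the median of all genes. Atg14 and Uvrag encode the alternative subunits that direct the complex to autophagosomes or to endosomes. Atg14 stood at 3.82 FPKM in knockout and 5.59 FPKM in control, and Uvrag at 8.99 FPKM in knockout and 14.1 FPKM in control, with ratios of 0.683 and 0.638. Their level relative to each other was close in both libraries, Atg14 being 0.425 times Uvrag in knockout and 0.397 times in control.

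The lipid carriers and phosphoinositide readers were lower as a group as well, with a median difference of -0.79 over the 4 measured genes. This was -0.43 relative to all genes and -0.27 with the length trend of all genes removed. Atg2b, which encodes a bridge that moves lipids into the membrane, stood at 2.28 FPKM in knockout and 4.53 FPKM in control, a ratio of 0.504 (0.443 to 0.572). Atg9a, a lipid scramblase gene, stood at 5.15 FPKM in knockout and 8.86 FPKM in control, a ratio of 0.582. The WIPI proteins read the phosphoinositide mark, and WIPI2 recruits ATG16L1. Wipi2 stood at 14.4 FPKM in knockout and 27.3 FPKM in control, a ratio of 0.529 (0.489 to 0.572). Its relative Wipi1 stood at 8.31 FPKM in knockout and 11.1 FPKM in control, a ratio of 0.747 (0.630 to 0.885), so that these intervals did not overlap. Wipi2 was 1.74 times Wipi1 in knockout and 2.45 times in control. Against the length trend they lay closer together, with Wipi2 (4264 bases) at -0.42 and Wipi1 (1817 bases) at -0.29.

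Of the measured genes of the conjugation machinery, Atg16l1 and Atg16l2 had the lowest ratios, and Atg3, Atg5 and Atg10 stayed closest to their control levels. The 10 measured genes had a median difference of -0.38, which is -0.02 relative to all genes. Atg16l1, which positions the conjugating complex on the membrane, stood at 7.37 FPKM in knockout and 14.3 FPKM in control, a ratio of 0.517 (0.456 to 0.585). Atg16l2, its paralogue, stood at 4.10 FPKM in knockout and 7.03 FPKM in control, a ratio of 0.583 (0.516 to 0.659). Against the length trend Atg16l1 lay at -0.53 and Atg16l2 at -0.13. The other parts of the same complex differed less. Atg5 stood at 13.4 FPKM in knockout and 14.7 FPKM in control, a ratio of 0.908 (0.806 to 1.02). Atg12, the ubiquitin-like protein joined to ATG5, stood at 7.08 FPKM in knockout and 9.36 FPKM in control, a ratio of 0.756 (0.649 to 0.881). The interval of Atg16l1 lay below both without overlap.

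Among the enzymes, Atg7 encodes the E1-like activator and Atg3 and Atg10 the E2-like conjugators. Atg3 stood at 29.0 FPKM in knockout and 31.0 FPKM in control, a ratio of 0.934 (0.853 to 1.02). Atg10 stood at 4.73 FPKM in knockout and 4.94 FPKM in control, a ratio of 0.957 (0.816 to 1.12). Both intervals include 1, so a difference from a ratio of 1 was not detectable at this depth. Both lay above the all-gene median ratio of 0.757, with relative differences of 0.27 for Atg3 and 0.31 for Atg10. Atg7 stood at 3.16 FPKM in knockout and 4.82 FPKM in control, a ratio of 0.656 (0.553 to 0.776), an interval that overlaps that of Atg16l2. The ATG4 proteases trim ATG8 proteins before conjugation and release them afterwards. Atg4b, the main protease, stood at 12.1 FPKM in knockout and 16.3 FPKM in control, Atg4d at 8.62 FPKM in knockout and 11.4 FPKM in control, and Atg4c at 1.21 FPKM in knockout and 1.68 FPKM in control. Their ratios of 0.742, 0.759 and 0.720 were close to the median of all genes. Atg4d overlaps the opposite-strand gene Kri1 by 1381 bases, and the strand setting of the counting is not known from the labels, so reads of these neighbours cannot be told apart.

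**Figure D2:**
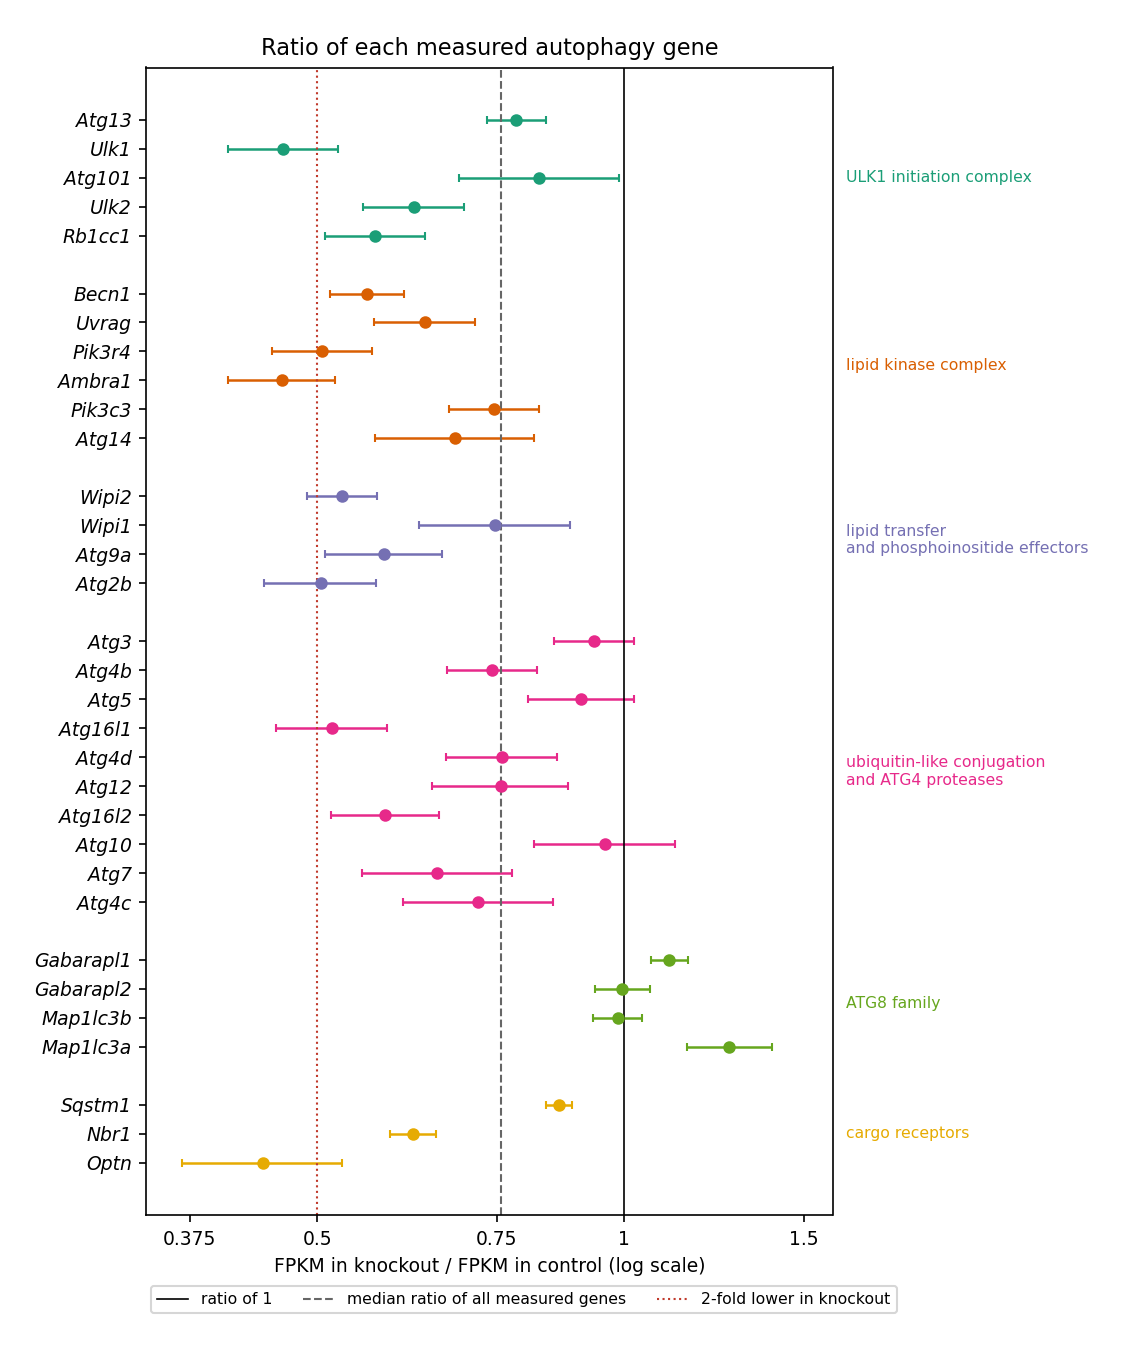
Ratio of FPKM in knockout over control (log axis) for each of the 32 measured autophagy genes, by role, with 95% counting intervals as bars and 1 library per group. The dashed line marks the median ratio of all measured genes, 0.757. Optn, Ambra1 and Ulk1 lie left of 0.5, and Map1lc3a and Gabarapl1 lie right of 1.

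The ATG8 genes encode the small ubiquitin-like proteins that are attached to the autophagosome membrane, in the LC3 and GABARAP subfamilies. Map1lc3a occupies bases 155276364 to 155278073 of chromosome 2, plus strand. It had 908 reads (57.5 FPKM) in knockout and 826 reads (45.4 FPKM) in control, a ratio of 1.27 (1.15 to 1.40) and a relative difference of 0.70, the highest of the members. Gabarapl1 had the highest level of the family, with 4351 reads (163 FPKM) in knockout and 4534 reads (147 FPKM) in control, a ratio of 1.11 (1.06 to 1.15). Gabarapl2 stood at 130 FPKM in knockout and 131 FPKM in control, a ratio of 0.996 (0.936 to 1.06). Map1lc3b, whose protein is the usual laboratory marker of autophagosomes, stood at 59.9 FPKM in knockout and 60.9 FPKM in control, a ratio of 0.985 (0.931 to 1.04). The interval of Map1lc3a lay above those of Gabarapl2 and Map1lc3b without overlap and touched that of Gabarapl1.

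Together the measured ATG8 genes summed to 410 FPKM in knockout and 384 FPKM in control, while the 27 genes that are neither ATG8 genes nor cargo receptors summed to 220 FPKM in knockout and 324 FPKM in control. The order of the family by FPKM was the same in both libraries, Gabarapl1, Gabarapl2, Map1lc3b and Map1lc3a, though the last pair differed little in knockout. Map1lc3a was 0.960 times Map1lc3b in knockout and 0.746 times in control. As shares of the family's summed FPKM, Map1lc3a took 14.0% in knockout and 11.8% in control, and Gabarapl2 31.8% in knockout and 34.1% in control. All 4 measured ATG8 genes were above the all-gene median, with relative differences of 0.34 to 0.70. The labels likewise do not say how reads shared between near-identical gene copies were assigned.

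The cargo receptors bind ubiquitinated cargo and ATG8 proteins at once, and they differed from each other. Sqstm1, encoding p62, had the highest level of all members, with 7883 reads (257 FPKM) in knockout and 10523 reads (298 FPKM) in control. Its ratio was 0.864 (0.839 to 0.890) and its relative difference 0.15. Nbr1 stood at 29.1 FPKM in knockout and 46.9 FPKM in control, a ratio of 0.621 (0.589 to 0.653). Sqstm1 was thus 8.84 times Nbr1 in knockout and 6.35 times in control. Against the length trend of all genes they lay closer together, with Sqstm1 (2030 bases) at -0.05 and Nbr1 (5151 bases) at -0.15. Optn encodes optineurin, a receptor for damaged mitochondria and bacteria, and occupies bases 5020521 to 5064399 of chromosome 2, minus strand. It had 170 reads (3.52 FPKM) in knockout and 443 reads (7.94 FPKM) in control. Its ratio of 0.443 (0.369 to 0.529) was the lowest of the measured members, and 4.76% of the measured genes in the table differed by more in that direction.

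Promoter windows of 3 members are printed, chosen with their values and motifs in view. Gabarapl1 had the highest level of the ATG8 genes, Atg3 holds a pair of E-boxes, and Atg5 holds 1 close to the start. The E-box letters CACGTG are the core of sites bound by TFEB, a transcription factor that drives autophagy and lysosome genes, and capitals mark that motif. Each window is the 250 bases before a transcription start that RefSeq gives on GRCm38.p6, 5′ to 3′ on the gene's strand. The set of RefSeq promoter windows used here held entries for 29 of the 35 members. The Gabarapl1 window lies at chr6:129532942-129533191 and the Atg3 window at chr16:45158579-45158828, both on the plus strand and both ending just before the start listed in the table. The Atg5 window, chr10:44268089-44268338 on the plus strand, belongs to a RefSeq start 17 bases downstream of the listed one. The bases after this Atg5 start were not found in a GENCODE transcript of the gene. Those after the Gabarapl1 and Atg3 starts were found in one.
Gabarapl1: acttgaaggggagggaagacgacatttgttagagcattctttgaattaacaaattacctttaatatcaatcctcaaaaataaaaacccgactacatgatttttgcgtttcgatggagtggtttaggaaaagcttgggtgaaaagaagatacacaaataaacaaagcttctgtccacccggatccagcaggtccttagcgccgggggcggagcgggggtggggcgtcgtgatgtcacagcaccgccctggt
Atg3: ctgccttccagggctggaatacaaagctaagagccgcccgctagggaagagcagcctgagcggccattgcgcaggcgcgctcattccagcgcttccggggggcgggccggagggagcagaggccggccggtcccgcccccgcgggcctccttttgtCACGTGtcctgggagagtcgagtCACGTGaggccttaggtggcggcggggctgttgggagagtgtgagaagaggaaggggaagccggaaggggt
Atg5: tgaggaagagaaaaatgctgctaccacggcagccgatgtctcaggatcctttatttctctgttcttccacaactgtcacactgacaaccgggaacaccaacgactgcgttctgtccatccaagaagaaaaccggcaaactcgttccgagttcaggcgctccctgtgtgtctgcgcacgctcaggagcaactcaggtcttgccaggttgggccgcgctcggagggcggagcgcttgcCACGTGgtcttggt

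The RefSeq starts of Optn and Atg7 lie 282 and 27999 bases downstream of the listed starts, so that their windows fall inside the listed genes and are not printed. Neither the Gabarapl1 window nor the Optn window held CACGTG. Of the 32 member windows, 3 (9.38%) held it on either strand, those of Atg3, Atg5 and Atg7, against 6.02% of all 32851 windows of this length. The ratios of these genes were 0.934, 0.908 and 0.656. The cyclic AMP response element TGACGTCA was in 1 member window, that of Atg16l2 (3.13%, against 1.55% of all windows), and overlaps no E-box by its letters. A match describes the letters of the window and not bound sites.

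Differences of the members followed gene length, as they did over all genes in these libraries. The Spearman rho of listed length and difference was -0.57 over the 32 measured members and -0.55 over all 10666 measured genes, where genes share the same libraries and are not independent replicates. The measured ATG8 genes were among the shortest members, at 980 to 2560 bases, while Ulk1 has 5750 and Ambra1 5290 bases. In the shortest of 3 equal classes of all genes (206 to 2609 bases) the 10 members had a median difference of -0.12, against -0.05 for all genes of the class, and 0 members were 2-fold lower (1.66% of the class). In the middle class (2610 to 4745 bases) the 12 members had -0.52, against -0.40 for the class, and 1 was 2-fold lower (5.43% of the class). In the longest class the 10 members had -0.73, against -0.59 for the class, and 2 were 2-fold lower (11.9% of the class). Members were thus slightly lower than genes of like length in each class, by less than 0.2 on the log2 scale.

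With the length trend of all genes subtracted, 23 of the 32 members (71.9%) lay below the trend, where 50.5% of all measured genes did, and 0 were past 2-fold. Optn lay farthest below at -0.71, followed by Becn1 at -0.59, Atg16l1 at -0.53, Ambra1 at -0.50 and Ulk1 at -0.47. These genes encode a cargo receptor, a lipid kinase subunit, the platform of the conjugating complex and a pair of initiation regulators. Atg10 lay farthest above at 0.40, followed by Atg4c at 0.27. Of the ATG8 genes, Map1lc3b, Gabarapl1 and Map1lc3a lay above the trend by 0.22 to 0.25, and Gabarapl2 below it at -0.15. Sqstm1 lay near the trend at -0.05.

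**Figure D3:**
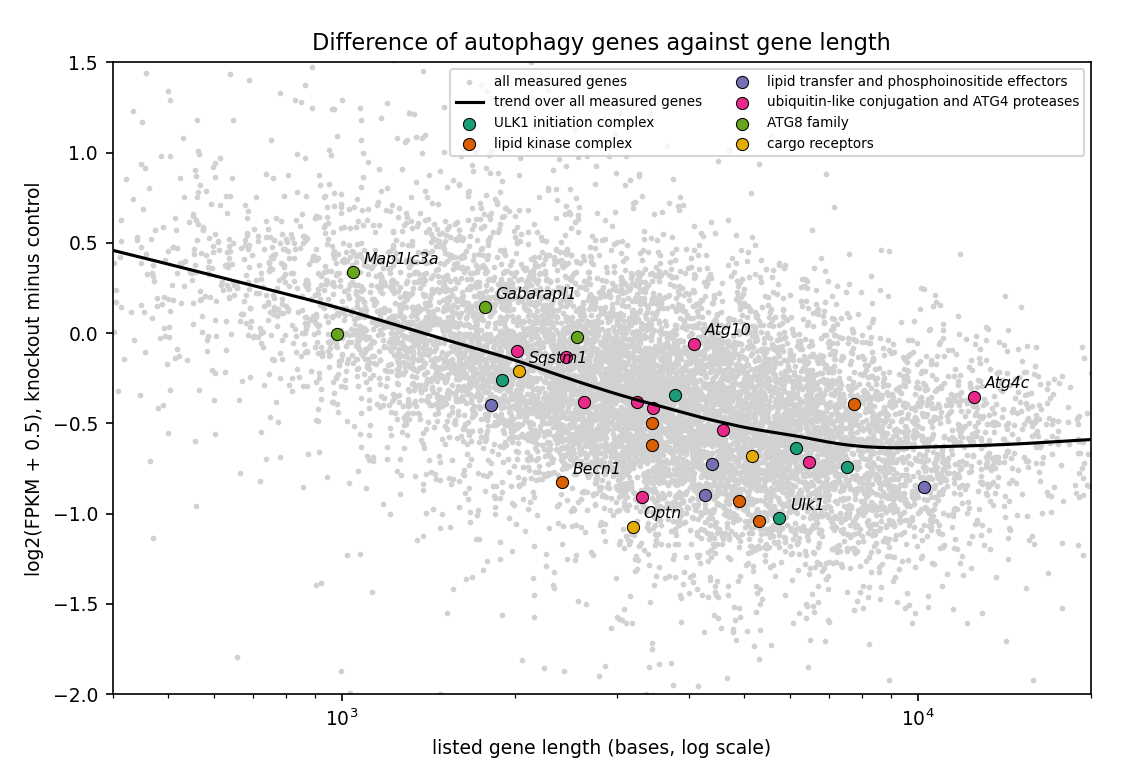
Difference in log2(FPKM + 0.5), knockout minus control, against listed gene length in bases (log axis), with grey points for all measured genes inside the axes and coloured points for the 32 measured autophagy genes by role. The line is the smoothed trend over all measured genes. The ATG8 genes sit among the short genes at the upper left, and Optn at -1.07 lies well under the line.

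The signs of many members depended on scaling. Over the alternatives tried, 20 members were lower in knockout under each, among them Optn, Ambra1, Ulk1, Pik3r4, Atg16l1, Wipi2 and Becn1. Map1lc3a and Gabarapl1 were higher under each. The other 10 took both signs: Atg3, Atg5, Atg10, Atg13, Atg101, Atg4c, Pik3c3, Sqstm1, Map1lc3b and Gabarapl2. By DESeq in the authors' deposited table, 0 of the 34 listed members had an adjusted p-value under 0.05 and 0 had an unadjusted one under it. Of all 16528 listed genes, 0.496% passed the adjusted threshold and 2.67% the unadjusted one. These p-values rest on 1 library per group. The authors' deposited table gives log2 fold changes of -0.79 for Optn, -0.73 for Ambra1, -0.73 for Ulk1, 0.53 for Gabarapl1 and 0.72 for Map1lc3a.

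Of 58 related genes in the table, which act before, beside and after this machinery, 53 were measured. Of these, 48 (90.6%, against 78.9% of all measured genes) had a lower level in knockout and 5 a higher one. At the size rule, 6 were at least 2-fold lower (11.3%, against 6.32% of all) and 0 higher (1.57% of all), with a median difference of -0.53, or -0.17 relative to all genes. Relative to that median, 0 of the 53 were past 2-fold. The medians by list ran from -0.33 for other cargo receptors to -0.74 for nutrient kinases, and with the length trend removed from 0.08 for other cargo receptors to -0.21 for transcription factors.

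The 14 nutrient kinase genes and regulators had a median difference of -0.74. This was -0.37 relative to all genes and -0.16 with the length trend removed. Of the 14, 3 were at least 2-fold lower (21.4%, against 6.32% of all measured genes). Mlst8 and Rptor encode partners of mTOR, the kinase that holds ULK1 inactive when nutrients are plentiful. Mlst8 had 44 reads (0.855 FPKM) in knockout and 166 reads (2.80 FPKM) in control, a ratio of 0.306 (0.214 to 0.428). Rptor stood at 3.09 FPKM in knockout and 7.83 FPKM in control, a ratio of 0.395 (0.351 to 0.443). Tsc1, an upstream brake on mTOR, stood at 2.52 FPKM in knockout and 5.80 FPKM in control, a ratio of 0.435 (0.382 to 0.496). Genes of both arms were thus lower, as were 78.9% of all measured genes. Mtor itself, which also has a second row on a scaffold, so that its level is uncertain, had a ratio of 0.527. Prkaa1, a catalytic subunit of the energy sensor AMPK, had 0.514. At the other end were Rheb, the GTPase that activates mTOR, with a ratio of 1.03 (0.969 to 1.10), and the AMPK subunit gene Prkab1, with 0.822.

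Of the transcription factors, 1 of 5 measured was 2-fold lower (20%, against 6.32% of all). The median difference was -0.66, or -0.29 relative to all genes. Foxo3, a forkhead factor that activates autophagy genes, had 481 reads (4.60 FPKM) in knockout and 1520 reads (12.6 FPKM) in control, a ratio of 0.365 (0.329 to 0.405) and the lowest difference of all related genes at -1.36. Tfeb stood at 1.70 FPKM in knockout and 1.75 FPKM in control, a ratio of 0.970 (0.774 to 1.21). A difference from a ratio of 1 was not detectable at this depth. The interval lay above the all-gene median ratio of 0.757, with a relative difference of 0.33. Tfe3, a relative of Tfeb, had a ratio of 0.614, Foxo1 0.618 and Zkscan3, a repressor of autophagy genes, 0.651.

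Other cargo receptors spread in both directions, with a median difference of -0.33 over 14 measured genes, or 0.04 relative to all genes. Ncoa4, the receptor for ferritin, was the 1 gene 2-fold lower, at 4.69 FPKM in knockout and 10.2 FPKM in control, a ratio of 0.459 (0.401 to 0.525). Tollip, an adaptor that binds ubiquitin, had a ratio of 0.558. Retreg1, a receptor for endoplasmic reticulum, stood at 7.30 FPKM in knockout and 5.90 FPKM in control, a ratio of 1.24 (1.10 to 1.39). Fundc1, a receptor of the mitochondrial outer membrane, stood at 20.05 FPKM in knockout and 16.3 FPKM in control, a ratio of 1.23 (1.13 to 1.34). With length accounted for, Retreg1 and Fundc1 lay above the trend by 0.82 and 0.68.

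The other early factors had a median difference of -0.44 over 8 measured genes. Zfyve1, a phosphoinositide-binding protein used to mark sites of autophagosome formation, had a ratio of 0.461 (0.403 to 0.526) and was the 1 gene 2-fold lower. Tecpr1 had 0.519. Vmp1, a membrane protein needed for autophagosome formation, had 0.979, and Wdr45, which encodes WIPI4, had 0.950. Fusion factors, which join autophagosomes to lysosomes, had a median difference of -0.51 over 12 measured genes, and 0 were past 2-fold. Vps39 and Plekhm1, a tethering subunit and an adaptor that binds ATG8 proteins, had the lowest ratios at 0.505 and 0.508. Rab7, the GTPase of late endosomes and lysosomes, stood at 115 FPKM in knockout and 105 FPKM in control, a ratio of 1.10 (1.05 to 1.14), and Vamp8, a membrane fusion protein gene that also has a second row on a scaffold, had 0.865 on 12 reads in knockout and 16 in control.

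**Figure D4:**
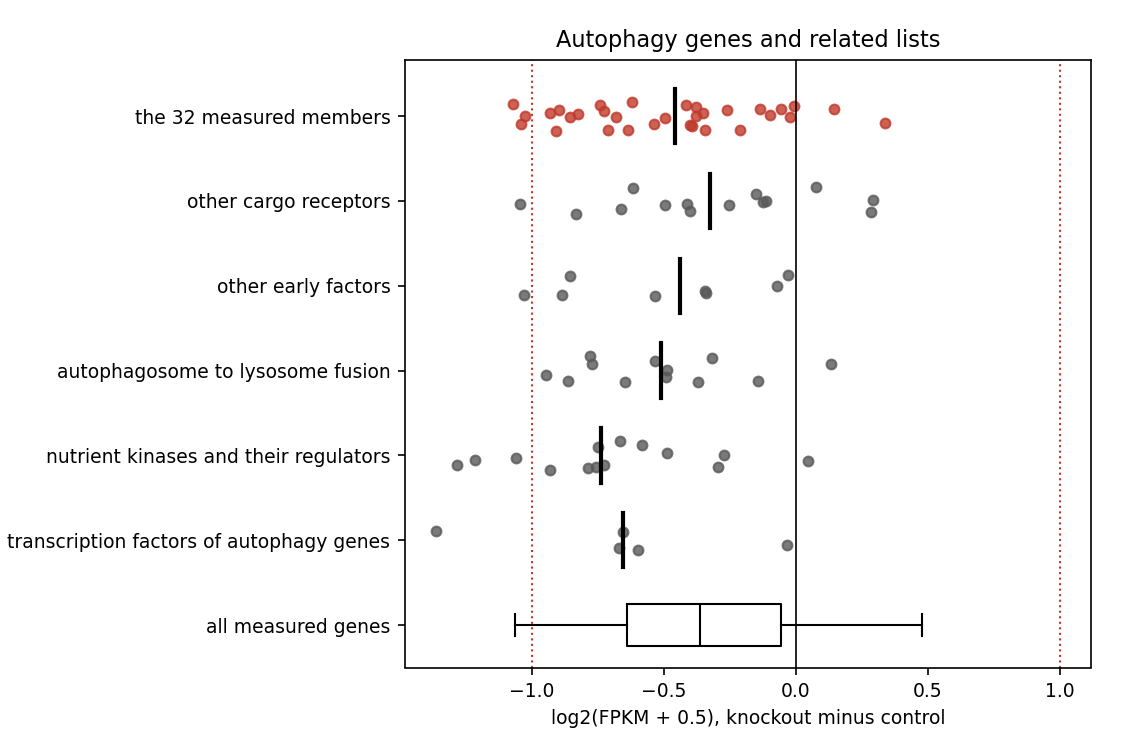
Difference in log2(FPKM + 0.5), knockout minus control, for each measured gene of the autophagy machinery and of 5 related lists. Each point is a gene, black bars are medians, and the box shows the quartiles of all measured genes with whiskers from the 5th to the 95th percentile. Dotted lines mark 2-fold, and no member or related gene lies beyond the right one.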

How the data were processed

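RNA of pancreatic islets was sequenced in 1 knockout and 1 control library. Read counts per gene were deposited as whole numbers, per the file headers. The authors also deposited FPKM values, which equal the counts scaled to listed gene length and to total reads on listed genes. In the deposited comparison table the signal per library is the count divided by a size factor (0.816 for knockout and 1.23 for control). The authors' DESeq results stand beside it as a fold ratio (knockout over control), a log2 fold change, p-values and adjusted p-values. Per the submitters' processing notes, Bowtie2 2.4.2, DESeq, mm10 and GRCm38 were used. Which tool and annotation served for counting was not given in the sources used here.

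No count model was fitted, since the spread cannot be estimated from 1 library per group. Differences, the 2-fold rule and the minimum mean FPKM of 1 are as given with the results. Counting intervals of ratios are Clopper-Pearson intervals, conditional on the summed reads of a gene, and reads are not independent molecules. The length trend is a lowess fit with a span of 0.3 (statsmodels 0.14.6, SciPy 1.17.1, Python 3.11.15). The calculations were tested on simulated counts.

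The members and lists were chosen with earlier results of these data known. The lists held 61 symbols of related genes. Fam134b is an older name of Retreg1 in the same list, and Tp53inp1 and Tp53inp2 were not analysed here, nor was Ctrc of the acinar markers. Reads and FPKM of measured members are given by role, intervals mainly for the 6 lowest and 6 highest ratios and the ATG8 genes, and the 2 lowest and 2 highest ratios of each related list are named. Any further gene was picked with its values in view. For 24 of the 32 member promoter windows, the bases after the RefSeq start were found in a GENCODE transcript of the gene.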

Additional observations from a re-analysis of the deposited data

How the results depend on the processing

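The 3 members at least 2-fold lower became 0 with a pseudocount of 1 FPKM and with median ratio scaling. They also became 0 with totals without the 20 highest genes and with knockout FPKM rescaled to the authors' normalised counts. That rescaling used a single factor of 1.30 for all genes. Totals without the acinar markers and removal of the length trend gave 0 as well, and the 1.5-fold rule gave 14. The same count for the whole measured set, 674 of 10666, became in that order 457, 145, 266, 174, 332 and 114, and 3160 with the 1.5-fold rule. With a pseudocount of 1 FPKM the differences of Optn, Ambra1 and Ulk1 were -0.99, -0.97 and -0.95, against -1.07, -1.04 and -1.02. Under the same settings in that order, the 6 related genes at least 2-fold lower became 3, 0, 3, 2, 3 and 0, and 25 with the 1.5-fold rule. The median difference of the members, -0.46, became -0.093 with median ratio scaling and -0.23 without the 20 highest genes. It became -0.11 with the rescaling to the authors' normalised counts, -0.28 without the acinar markers and -0.11 with the length trend removed. The median of all genes moved with these scalings, to 0, -0.14, -0.02, -0.19 and -0.0035. A pseudocount of 0.1 FPKM, no minimum and a mean FPKM of at least 5 left the counts of members and related genes within 1.5 times, as did leaving out genes with a second row on a scaffold, an alternative chosen after seeing the data. No member or related gene was at least 2-fold higher under the alternatives tried, and none of Optn, Ambra1 and Ulk1 changed sign. No paired analysis was possible because each group has 1 library, and for the same reason no replicate could be left out. Depth limits Mlst8, with 44 reads in knockout and 166 in control, and the members listed at or near 0.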
